A study of Mus musculus with 12 samples.

Results

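The forkhead, C/EBP, HNF6 and PROX1 transcription factors of the liver were followed across time of day and treatment. They are the 9 rows, of 23849 gene symbols in the deposited expression table, named Foxa1, Foxa2, Foxa3, Foxq1, Cebpa, Cebpb, Cebpd, Onecut1 and Prox1, and each symbol had 1 row. The genes were picked by name with earlier results of these same livers in view. Their values are therefore given as a description, and for the 9 only the counts past a limma threshold are stated, beside the share of all genes past it. Foxa1, Foxa2 and Foxa3 are also known as the HNF3 genes, and Onecut1 encodes HNF6.

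Liver RNA came from 12 male C57BL/6 mice on a high-fat diet, 8 weeks old at the start, for which the labels name no transgene or deleted gene. In the Cntrl groups mice were gavaged with vehicle, and in the Libramed groups with the product of that name, a gel-forming fiber complex called Policaptil Gel Retard in the study, for 2 weeks. By the study's account the high-fat diet began weeks before the gavage, which was given in the last 2 weeks of the diet. Livers were taken at ZT0, when the lights go on and the active phase of the mouse ends, or at ZT12, when the lights go off and feeding begins. The study gave the gavage each day just before the lights went off. Time of day and time since gavage therefore cannot be told apart in the contrasts of ZT12 with ZT0. Each of the 4 groups (Cntrl ZT0, Cntrl ZT12, Libramed ZT0, Libramed ZT12) had 3 mice, and no chow-fed group was among them, so the high-fat diet was shared by every sample. The labels call the 3 samples biological replicates of a group without naming cages or litters, so p-values measure the spread between these samples.

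FOXA proteins open closed chromatin at liver enhancers and prepare them for other factors, including the glucocorticoid receptor and HNF4A, and FOXA2 is known for fasting metabolism. C/EBP-alpha keeps hepatocytes in a differentiated, metabolic state, whereas C/EBP-beta and C/EBP-delta are fast-responding relatives that act in the acute-phase response and in gluconeogenesis. HNF6 and PROX1 are developmental liver regulators that stay on in adult hepatocytes, where HNF6 acts on glucose and bile acid genes and PROX1 restrains nuclear receptors such as HNF4A and LRH-1. FOXQ1 is a forkhead factor expressed in several epithelia and in liver.

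Values are FPKM, the reads on a gene divided by the length of its transcript and by the size of the library, which can be compared between genes. Changes are differences of log2(FPKM + 1), which understates changes of low genes. The libraries were alike in depth to within 1.77-fold, judged from the smallest steps of low values, and read totals were not analysed here. Tests were fitted across 9806 genes with limma and called at a Benjamini-Hochberg adjusted p under 0.05. The 8 gene lists followed below were also chosen with earlier results of these livers known. Their counts, medians and p-values are therefore a description and not independent support. All 7 clock genes used to check the time labels were called between ZT12 and ZT0 in both treatments, 4 higher and 3 lower at ZT12. Hepatocyte markers summed to 33572 to 47937 FPKM per library, although Alb was listed at 0 in all 12 libraries. Cholangiocyte markers summed to 26.4 to 53.3 FPKM and Kupffer cell markers to 20.7 to 54.9 FPKM, and neutrophil markers to 0.572 to 18.8 FPKM. The 8 pancreas markers summed to 30.2 to 75.5 FPKM, with Cela1 at group means of 37.6 to 63.8 FPKM, while Cpa1, Amy2a5, Prss2, Ins1 and Ins2 were listed at 0 throughout, as Alb was.

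The 9 genes spanned a wide range of levels. Over the 12 livers Cebpa had a mean of 185 FPKM and Cebpb 94.3 FPKM, followed by Foxa3 at 34.7, Foxa2 at 20.9 and Foxq1 at 13.0 FPKM. Foxa1 at 8.57, Prox1 at 8.42, Onecut1 at 5.67 and Cebpd at 3.40 FPKM were the lowest. All 9 passed the minimum mean of 1 FPKM set for testing. Cebpb, Cebpd and Foxa3 separated by time of day in both treatments. Foxa1, Foxa2, Foxq1 and Onecut1 varied mainly from mouse to mouse and did so together, Onecut1 mainly at ZT12. Cebpa was nearly level and Prox1 moved against Foxa1, Foxa2 and Foxq1.

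**Figure D1:**
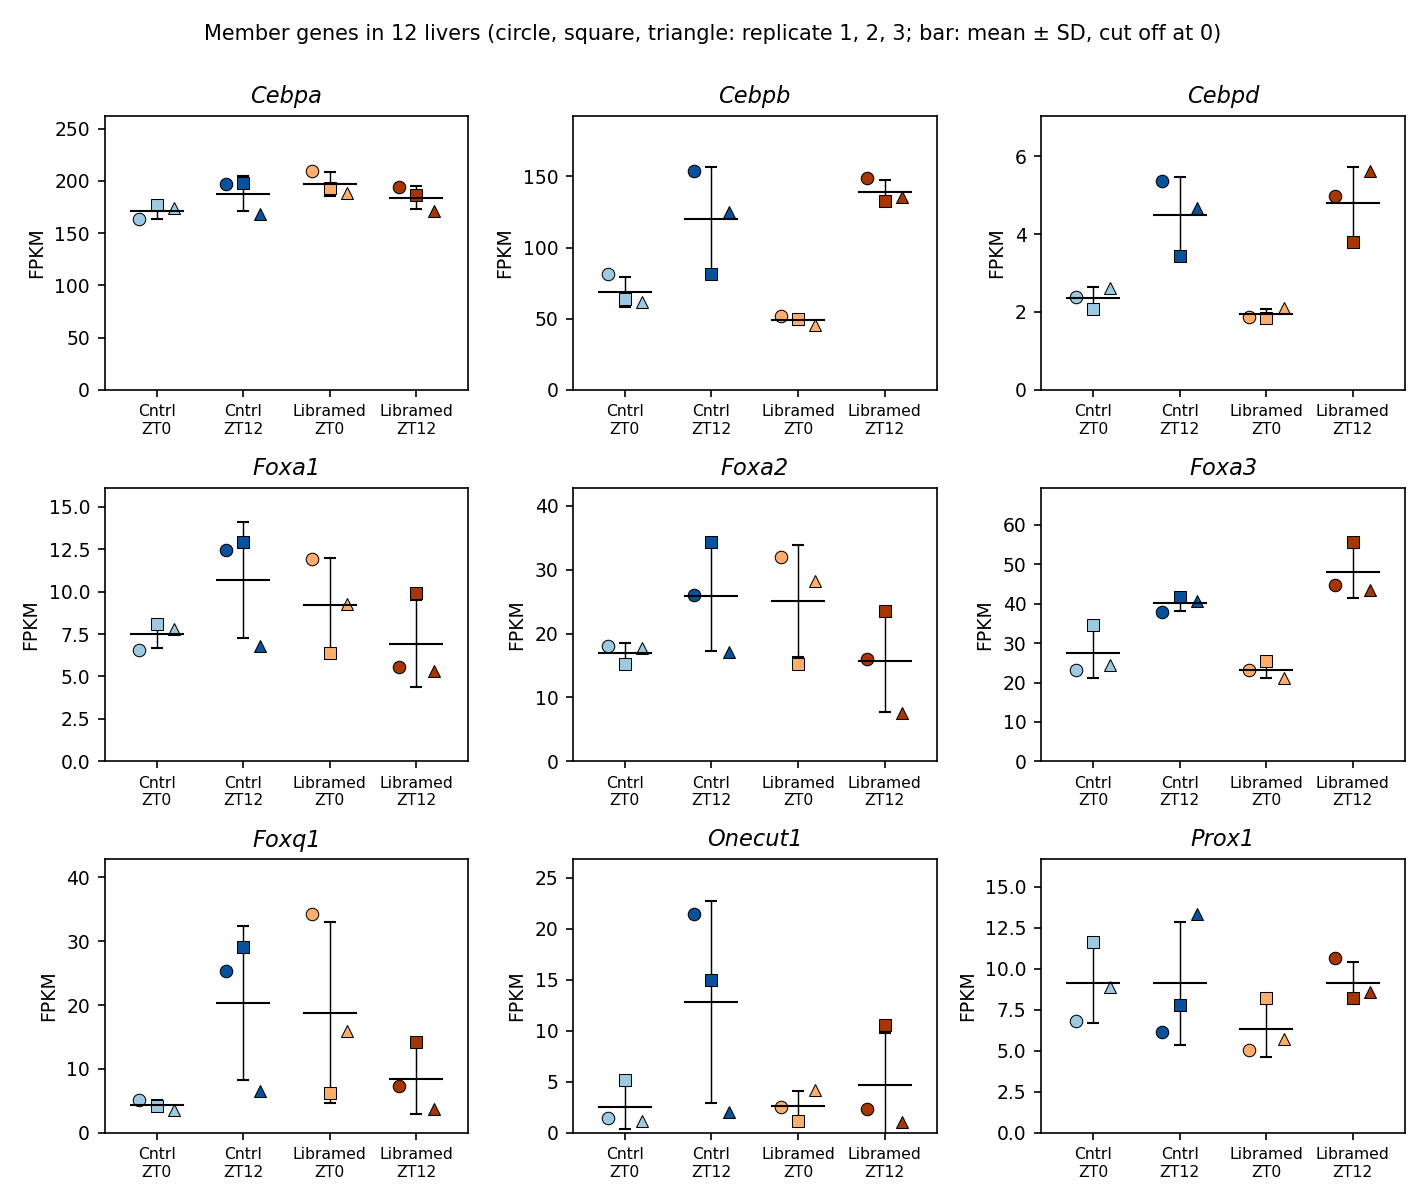
Expression of the 9 factors in FPKM (vertical axes, linear from 0) in the 4 groups (horizontal axes), with 1 symbol per mouse and a bar for the mean with SD (n = 3). Cebpb, Cebpd and Foxa3 are higher at ZT12 than at ZT0 in both treatments without overlap, whereas Foxq1 runs from 3.56 to 34.3 FPKM and Onecut1 from 1.05 to 21.5 FPKM with livers of 1 group far apart.

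Of the genes whose promoter is not shown, Foxq1 lies at chr13:31556134-31560976 and Cebpd at chr16:15887286-15891031, both on the plus strand (mm10, GENCODE vM21).

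RefSeq promoters (250 bases before to 50 bases after the transcript start, build GRCm38.p6) matched 7 of the 9 genes, all but Cebpd and Foxq1. The promoters of Cebpb and Foxa3 are shown because these are the time-separated genes with a sequence, and those of Foxa1, Foxa2 and Onecut1 because these genes varied together. Each reads 5′ to 3′ on the strand of its gene, with capitals marking the motifs found on either strand.
Cebpb, chr2:167688665-167688964, plus strand: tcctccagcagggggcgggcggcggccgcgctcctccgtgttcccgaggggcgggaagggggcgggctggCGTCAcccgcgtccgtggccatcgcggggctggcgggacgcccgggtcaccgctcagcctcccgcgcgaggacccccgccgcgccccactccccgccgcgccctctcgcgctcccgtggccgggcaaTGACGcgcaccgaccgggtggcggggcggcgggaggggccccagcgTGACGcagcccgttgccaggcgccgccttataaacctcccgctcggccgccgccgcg
Foxa3, chr7:19023490-19023789, minus strand: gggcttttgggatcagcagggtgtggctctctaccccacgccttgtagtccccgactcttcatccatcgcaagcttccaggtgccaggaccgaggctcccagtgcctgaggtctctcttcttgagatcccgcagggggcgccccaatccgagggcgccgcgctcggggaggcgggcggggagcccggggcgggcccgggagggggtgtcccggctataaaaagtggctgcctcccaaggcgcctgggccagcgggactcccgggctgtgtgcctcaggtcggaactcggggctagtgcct
Foxa1, chr12:57546062-57546361, minus strand: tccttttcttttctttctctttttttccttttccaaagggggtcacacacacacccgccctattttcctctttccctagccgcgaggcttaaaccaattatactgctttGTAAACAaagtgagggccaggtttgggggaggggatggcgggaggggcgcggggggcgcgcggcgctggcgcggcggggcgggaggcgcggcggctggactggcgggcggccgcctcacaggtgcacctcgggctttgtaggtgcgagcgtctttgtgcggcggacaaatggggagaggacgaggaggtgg
Foxa2, chr2:148046920-148047219, minus strand: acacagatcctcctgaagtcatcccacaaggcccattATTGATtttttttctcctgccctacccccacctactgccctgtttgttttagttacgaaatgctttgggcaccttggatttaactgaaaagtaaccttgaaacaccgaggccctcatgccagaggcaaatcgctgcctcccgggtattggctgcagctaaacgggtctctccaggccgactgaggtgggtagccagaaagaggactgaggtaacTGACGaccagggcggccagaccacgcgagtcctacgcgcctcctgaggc
Onecut1, chr9:74861671-74861970, plus strand: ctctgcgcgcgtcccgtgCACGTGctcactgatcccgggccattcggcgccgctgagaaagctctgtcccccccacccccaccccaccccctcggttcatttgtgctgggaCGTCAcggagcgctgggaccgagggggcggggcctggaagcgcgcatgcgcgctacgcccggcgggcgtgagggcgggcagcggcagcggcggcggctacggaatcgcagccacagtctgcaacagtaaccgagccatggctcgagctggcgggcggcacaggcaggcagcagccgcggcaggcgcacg

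The letters of 7 motifs were searched on both strands: CACGTG (E-box), TTATGTAA (D-box), TGACG (core of the cAMP response element), TGTTTAC (forkhead), ATTGAT (HNF6 core), TTCNNNGAA (STAT) and TTGCGCAA (C/EBP palindrome). None of the matches shown overlap each other. The Cebpb window holds TGACG at 3 places, starting at bases -180, -53 and -7 from the transcript start, a motif that 20.8% of all 32851 promoters in the RefSeq table hold at least once. TGACG also stands in the Foxa2 window 1 base after the start and in the Onecut1 window at -139. The Onecut1 window has CACGTG at -232, found in 7.15% of promoters, the Foxa2 window has ATTGAT at -213, found in 7.54%, and the Foxa1 window has TGTTTAC at -141, found in 3.65%. The Foxa3 window holds none of the 7 motifs. Foxa2 has other windows, beginning at chr2:148045899 and chr2:148045415, which are not shown and also hold none of them. TTCNNNGAA (8.3% of promoters), TTATGTAA (0.938%) and TTGCGCAA (0.183%) are in none of the 10 windows of the 7 genes, and a match or its lack is a description of these letters alone.

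Cebpb, the C/EBP gene of the acute response, was higher at ZT12 than at ZT0 in both treatments. In Cntrl livers its level was 81.2, 64.1 and 61.4 FPKM at ZT0 and 154, 81.6 and 125 FPKM at ZT12. In Libramed livers it was 51.6, 49.8 and 45.3 FPKM at ZT0 and 149, 133 and 136 FPKM at ZT12. Every ZT12 liver was therefore above every ZT0 liver, although in Cntrl the gap between the highest ZT0 and the lowest ZT12 value was under 1 FPKM. The ratio of means was 1.75 in Cntrl, with a log2 fold change of 0.76 (SE 0.23, n = 3 per group), and 2.85 in Libramed, with a log2 fold change of 1.49 (SE 0.086). At ZT0 the 3 Libramed livers were all below the 3 Cntrl livers, with a ratio of 0.710 and a log2 fold change of -0.48 (SE 0.13). At ZT12 the treatments overlapped, and the log2 fold change of 0.25 (SE 0.21) was close to its error. In whole liver, fewer cells of a type and less RNA per cell cannot be told apart. Tmem189 overlaps exons of Cebpb on the opposite strand in GENCODE vM21 and, because the strand used in counting is not given in the sources used here, reads of the pair cannot be told apart. Its level was between 5.93 and 13.3 FPKM in all livers. Foxq1, Cebpa and Prox1 also overlap opposite-strand transcripts (A530084C06Rik, Gm45091 and Prox1os) and Onecut1 a transcript on its own strand (Gm20649), which were not analysed here.

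Cebpd, the C/EBP gene with the lowest level, followed the same order of times. Its level was 2.39, 2.08 and 2.61 FPKM in Cntrl ZT0 livers and 5.37, 3.45 and 4.66 FPKM in Cntrl ZT12 livers. Under Libramed it was 1.87, 1.85 and 2.10 FPKM at ZT0 and 4.98, 3.79 and 5.63 FPKM at ZT12. Here too no ZT0 liver reached a ZT12 liver of its treatment. The ratio was 1.90 in Cntrl (log2 fold change 0.70, SE 0.15) and 2.48 in Libramed (0.97, SE 0.13). Between treatments the livers overlapped at both times, with log2 fold changes of -0.19 (SE 0.097) at ZT0 and 0.08 (SE 0.17) at ZT12. Spidr, which overlaps Cebpd on the opposite strand, had group means of 0.759 to 0.986 FPKM.

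Cebpa, the C/EBP gene of the differentiated hepatocyte, was the steadiest of the 9. It was at 163, 177 and 174 FPKM in Cntrl ZT0, 197, 198 and 168 FPKM in Cntrl ZT12, 210, 193 and 189 FPKM in Libramed ZT0 and 194, 187 and 172 FPKM in Libramed ZT12. The highest liver was 1.29 times the lowest, and the SD within groups was 0.095 on the log2 scale, against a median of 0.14 over all genes tested. At ZT0 all 3 Libramed livers were above all 3 Cntrl livers, by a ratio of 1.15 (log2 fold change 0.20, SE 0.092). The other 3 contrasts of Cebpa overlapped, with log2 fold changes between -0.10 and 0.13. Cebpa thus stayed within a narrow range while Cebpb, its acute relative, went from 45.3 to 154 FPKM.

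The 3 Foxa genes did not share a pattern. Foxa3, the FOXA gene with the highest level in these livers, separated by time as Cebpb did. It was at 23.1, 34.6 and 24.4 FPKM in Cntrl ZT0 and at 37.8, 41.7 and 40.8 FPKM in Cntrl ZT12. In Libramed it was at 23.2, 25.3 and 21.2 FPKM at ZT0 and at 44.9, 55.6 and 43.6 FPKM at ZT12. No ZT0 liver reached a ZT12 liver, and the ratio was 1.46 in Cntrl (log2 fold change 0.56, SE 0.15) and 2.06 in Libramed (1.01, SE 0.12). At ZT12 the Libramed livers were all above the Cntrl livers, with a ratio of 1.20 (log2 fold change 0.25, SE 0.11), and at ZT0 the treatments overlapped (-0.21, SE 0.16). Cntrl ZT0 replicate 2 was the highest ZT0 liver, and without it the Cntrl log2 fold change was 0.73.

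Foxa2, whose protein acts on fasting and lipid genes, showed no such order. Its level was 18.0, 15.3 and 17.7 FPKM in Cntrl ZT0, 26.1, 34.3 and 17.1 FPKM in Cntrl ZT12, 32.0, 15.3 and 28.2 FPKM in Libramed ZT0 and 16.0, 23.5 and 7.59 FPKM in Libramed ZT12. Cntrl ZT0 was the only tight group. The mean was higher at ZT12 in Cntrl (log2 fold change 0.53, SE 0.23) and lower at ZT12 in Libramed (-0.71, SE 0.41), with overlapping livers in both. Single livers set much of the size, since the Cntrl value was 0.30 without Cntrl ZT12 replicate 2 and the Libramed value -0.29 without Libramed ZT12 replicate 3. Libramed against Cntrl gave 0.48 (SE 0.25) at ZT0 and -0.76 (SE 0.40) at ZT12, also with overlap.

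Foxa1, the third of the FOXA genes, had the same signs at smaller size. It was at 6.55, 8.07 and 7.81 FPKM in Cntrl ZT0, 12.4, 12.9 and 6.77 FPKM in Cntrl ZT12, 11.9, 6.36 and 9.29 FPKM in Libramed ZT0 and 5.54, 9.91 and 5.35 FPKM in Libramed ZT12. Its log2 fold change over time was 0.42 (SE 0.23) in Cntrl and -0.37 (SE 0.27) in Libramed. The Cntrl value was 0.27 without Cntrl ZT12 replicate 2 and 0.69 without Cntrl ZT12 replicate 3, and the Libramed value was -0.18 without Libramed ZT0 replicate 1 and -0.62 without Libramed ZT12 replicate 2. None of the 4 contrasts separated the livers of Foxa1.

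Among the 9 genes Foxq1 had the largest log2 fold changes over time in Cntrl and between treatments at ZT0, with a large spread beside them. It was at 5.11, 4.26 and 3.56 FPKM in Cntrl ZT0, where all 3 livers were low. It was at 25.4, 29.0 and 6.54 FPKM in Cntrl ZT12, at 34.3, 6.30 and 15.9 FPKM in Libramed ZT0 and at 7.25, 14.3 and 3.65 FPKM in Libramed ZT12. In each of these 3 groups at least 1 liver was within 2 FPKM of the Cntrl ZT0 range and at least 1 was far above it. The 3 Cntrl ZT0 livers lay below all Cntrl ZT12 livers (ratio 4.71, log2 fold change 1.78, SE 0.50) and below all Libramed ZT0 livers (ratio 4.37, log2 fold change 1.63, SE 0.51). Over time in Libramed (-0.96, SE 0.62) and between treatments at ZT12 (-1.12, SE 0.62) the livers overlapped. The Libramed time change was -0.41 without Libramed ZT0 replicate 1 and -1.55 without Libramed ZT0 replicate 2. The difference between the Libramed and Cntrl time changes was -2.75 (SE 0.89) on the log2 scale.

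Onecut1, the gene of HNF6, had the widest range of the 9, with the highest liver 20.4 times the lowest. It was at 1.41, 5.16 and 1.16 FPKM in Cntrl ZT0, 21.5, 14.9 and 1.99 FPKM in Cntrl ZT12, 2.57, 1.18 and 4.17 FPKM in Libramed ZT0 and 2.37, 10.5 and 1.05 FPKM in Libramed ZT12. All 4 groups held a liver under 2 FPKM, and every contrast overlapped. The time change was 1.69 (SE 0.78) in Cntrl, with 1.12 without Cntrl ZT12 replicate 1 and 2.58 without Cntrl ZT12 replicate 3. In Libramed it was 0.33 (SE 0.62), and it was -0.38 without Libramed ZT12 replicate 2. The latter liver had the lowest relative depth of the 12, at 0.712 of that of Cntrl ZT0 replicate 1, and the part of depth in its value was not tested.

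Prox1, which encodes the prospero-related co-repressor, had similar means in 3 groups. It was at 6.79, 11.6 and 8.90 FPKM in Cntrl ZT0, 6.17, 7.79 and 13.4 FPKM in Cntrl ZT12, 5.03, 8.20 and 5.71 FPKM in Libramed ZT0 and 10.6, 8.23 and 8.56 FPKM in Libramed ZT12. In Libramed the ZT12 livers were all above the ZT0 livers, by a ratio of 1.45 (log2 fold change 0.49, SE 0.17), with only 8.20 against 8.23 FPKM at the border. In Cntrl the time change was -0.04 (SE 0.28), and leaving out single livers moved it from -0.32 to 0.18. Prox1 also marks lymphatic endothelium, whose other markers Flt4, Pdpn, Mmrn1 and Reln summed to 4.14 to 4.49 FPKM in Libramed ZT0 and to 2.34 to 3.02 FPKM in Libramed ZT12, so they were lower where Prox1 was higher. Reln is also on the stellate cell list used here. Its mean was 2.41 FPKM in Libramed ZT0 and 1.41 FPKM in Libramed ZT12, against 1.46 and 1.19 FPKM for Flt4. In Cntrl the lymphatic markers summed to 2.52 to 4.06 FPKM at ZT0 and 2.35 to 2.60 FPKM at ZT12, and their part in the Prox1 values was not tested.

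**Figure D2:**
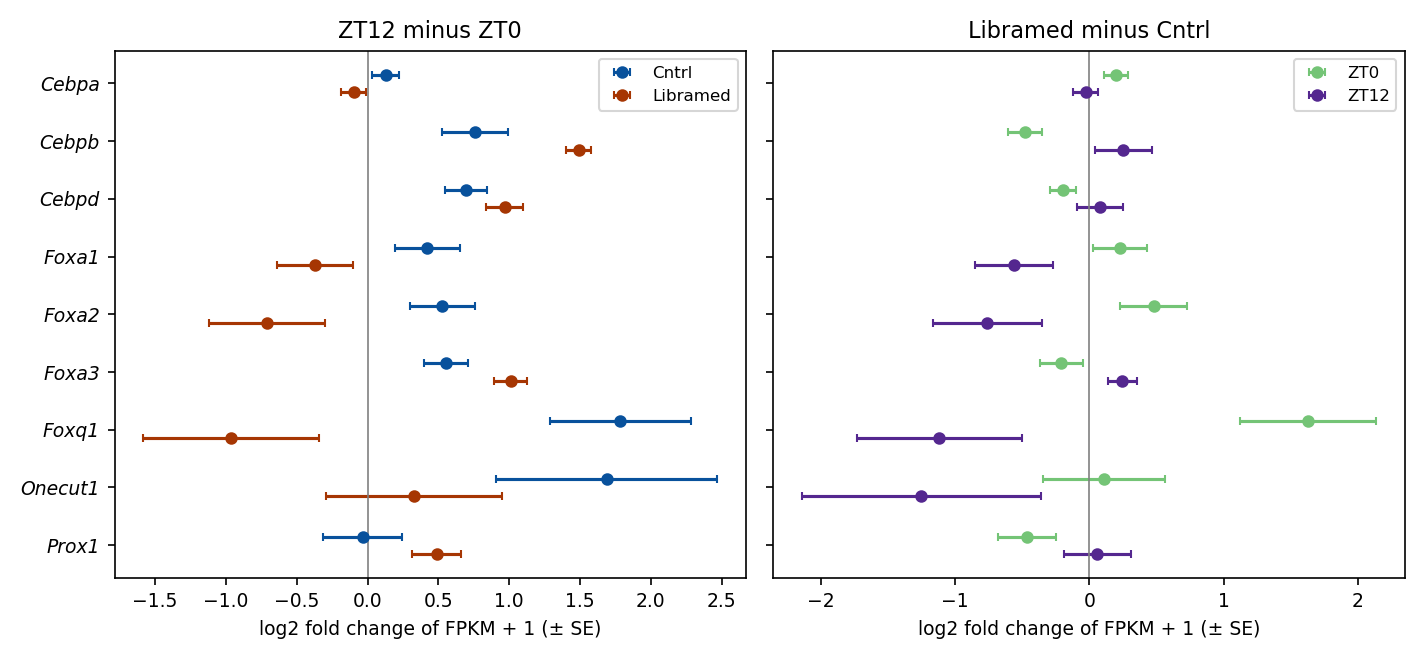
Log2 fold changes of FPKM + 1 with SE (horizontal axes) for the 9 factors, ZT12 minus ZT0 in each treatment on the left and Libramed minus Cntrl at each time on the right (n = 3 per group). Cebpb, Cebpd and Foxa3 lie above 0 in both treatments over time, while Foxa1, Foxa2 and Foxq1 lie above 0 in Cntrl and below 0 in Libramed with wide errors.

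Counted over the set, 4 of the 9 genes were higher at ZT12 without overlap in Cntrl (Foxa3, Foxq1, Cebpb and Cebpd), against 17.4% of all 9806 genes tested. In Libramed 4 were higher without overlap (Foxa3, Cebpb, Cebpd and Prox1), against 19.0%. By limma at adjusted p under 0.05, 1 was called higher in Cntrl (Cebpd) and 3 in Libramed (Foxa3, Cebpb and Cebpd), against 5.62% and 7.0% of all genes called higher. Because these contrasts were known when the genes were chosen, nothing is read from the counts. In Cntrl the call of Cebpd depended on single livers, since none of the 9 was called without Cntrl ZT0 replicate 1, Cntrl ZT0 replicate 3 or Cntrl ZT12 replicate 1, while 2 were called without Cntrl ZT12 replicate 2 and 3 without Cntrl ZT12 replicate 3. The median log2 fold change of the 9 was 0.56 in Cntrl and 0.33 in Libramed, with a median of 0.01 over all genes in both.

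Between treatments the set was called in no contrast. At ZT0, Foxq1 and Cebpa were higher and Cebpb lower in Libramed without overlap, where 5.19% of all genes were higher and 9.94% lower in this way. At ZT12 Foxa3 alone was higher without overlap, against 5.88% of genes. By limma, 0 of the 9 passed at adjusted p under 0.05 at either time, as did 0.0% of all genes, and at unadjusted p under 0.05 there were 2 at ZT0 (Foxq1 and Cebpb) and 0 at ZT12, against 9.23% and 6.74% of all genes. With both times together 0 of the 9 passed (0.0204% of all genes did, and 0 of the 9 but 10.1% of all genes had an unadjusted p under 0.05). For the difference between the time changes of the treatments, 0 passed the adjusted threshold and 4 the unadjusted one (Foxa2, Foxa3, Foxq1 and Cebpb), against 0.0% and 6.63% of all genes.

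The spread within groups set these genes apart from each other. The SD within groups on the log2 scale was 1.13 for Onecut1, 0.91 for Foxq1, 0.53 for Foxa2, 0.39 for Foxa1 and 0.36 for Prox1. These stood at the 99.3, 99.0, 97.6, 95.4 and 94.5 percentiles of all genes tested. Cebpb was at 0.26, Foxa3 and Cebpd at 0.19 and Cebpa at 0.095. The order of the livers was shared. Cntrl ZT12 replicate 3 and Libramed ZT12 replicate 3 were each the lowest liver of their group in Foxa1, Foxa2, Foxq1 and Onecut1, and so was Libramed ZT0 replicate 2. Libramed ZT12 replicate 2 was the highest of its group in all 4. In Cntrl ZT0, where Foxq1 was low in every mouse, the 4 genes did not share an order.

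**Figure D3:**
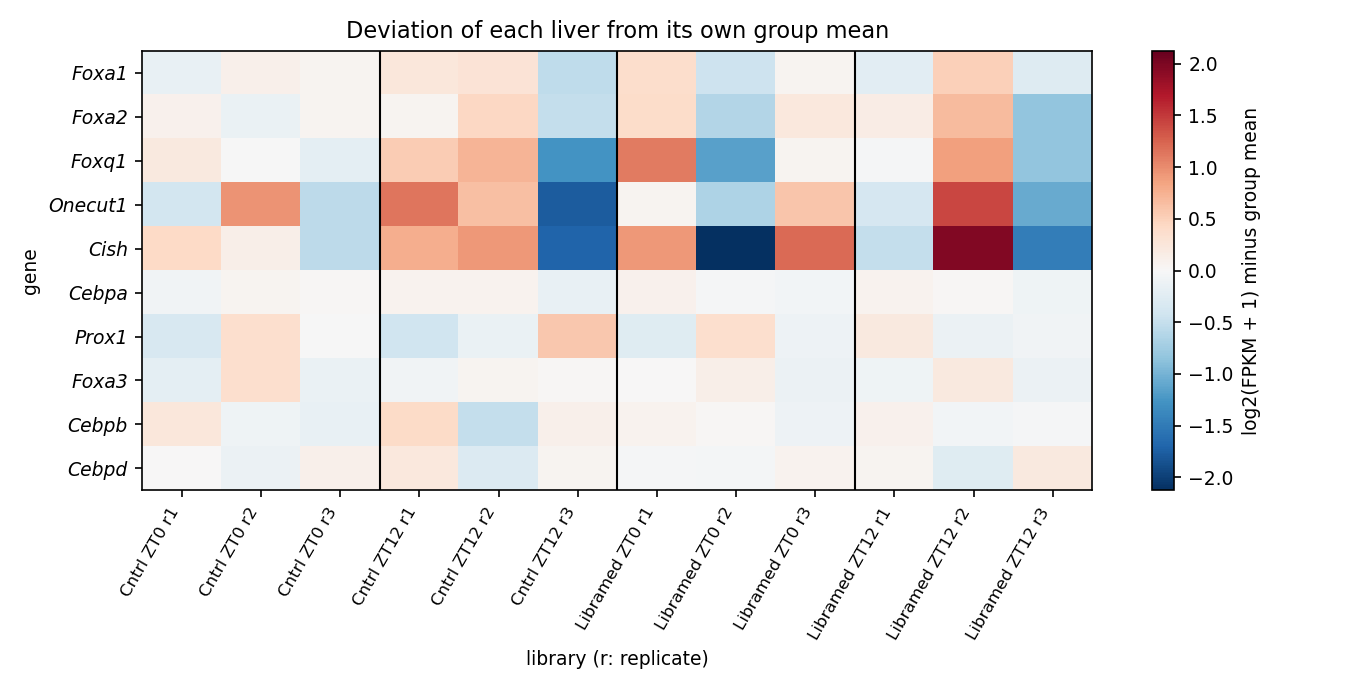
Deviation of each liver from the mean of its group in log2(FPKM + 1) (color scale) for the 9 factors and Cish (rows) in the 12 libraries (columns, with lines between the 4 groups). Foxa1, Foxa2, Foxq1, Onecut1 and Cish are all below their group mean in Cntrl ZT12 replicate 3, Libramed ZT0 replicate 2 and Libramed ZT12 replicate 3, while Cebpa deviates by -0.15 to 0.09 only.

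As a description over 12 livers, Foxa1 correlated with Foxa2 at r = 0.87 (Spearman's rho 0.83), and r was 0.85 without the 2 livers farthest from the median of Foxa1. Foxq1 correlated at r = 0.87 with Foxa1 (rho 0.72, r = 0.78 without 2 livers) and at r = 0.86 with Foxa2 (rho 0.81, r = 0.91 without 2 livers). Taking each liver's deviation from its group mean, which removes time and treatment, gave r = 0.92 for Foxa1 with Foxq1, 0.90 for Foxa2 with Foxq1 and 0.83 for Foxa1 with Foxa2. These genes therefore moved together within groups as well as between them. Onecut1 followed Foxa1 at r = 0.85, Foxq1 at r = 0.77 and Foxa2 at r = 0.71 in the deviations. Over the 12 livers its r with Foxa2 was 0.63 (rho 0.61), and 0.48 without the 2 livers farthest from the median of Foxa2. Its links were strong in the 6 ZT12 livers (r = 0.97 with Foxq1, 0.97 with Foxa1 and 0.88 with Foxa2). They were weaker in the 6 ZT0 livers (r = 0.30, 0.50 and 0.30).

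Prox1 went the other way, with deviations correlating at r = -0.72 with Foxq1 and -0.64 with Foxa1. Cebpa deviated with Foxq1 at r = 0.74 and Foxa1 at r = 0.71, within its narrow range. The time-separated genes behaved differently. Cebpb and Cebpd correlated at r = 0.94 over 12 livers and 0.61 in the deviations, but Foxa3 with Cebpb went from 0.83 to -0.30 and Foxa3 with Cebpd from 0.78 to -0.67 once the group means were removed. Their shared pattern was thus one of group means, and among mice of a group Foxa3 did not follow the C/EBP genes. The values of 1 liver share a library and its scaling, and the part of these in the correlations was not tested.

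For each factor the other genes with the most alike pattern were found by Pearson's r over the 12 livers among 9797 genes. For Foxq1 the first was Cish (r = 0.93, rho 0.87), which encodes an inhibitor of cytokine and growth hormone signaling that STAT5 induces, and the second was Phlda1 (r = 0.87). Cish was at 2.41, 1.77 and 0.717 FPKM in Cntrl ZT0, 32.0, 35.6 and 4.96 FPKM in Cntrl ZT12, 17.2, 1.19 and 21.0 FPKM in Libramed ZT0 and 3.58, 24.3 and 1.34 FPKM in Libramed ZT12. The 12 livers lay in a low set of 7, with Cish under 5 FPKM, and a high set of 5, with Cish above 17 FPKM, and r spans the step between these sets. The high livers were 2 of Cntrl ZT12, 2 of Libramed ZT0 and 1 of Libramed ZT12. They were the 5 livers with the highest Foxq1.

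**Figure D4:**
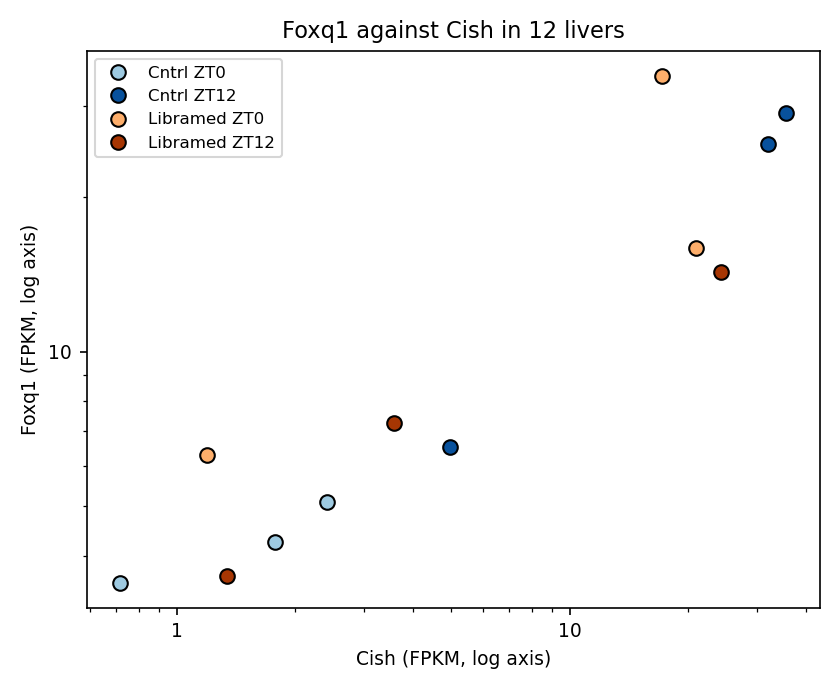
Foxq1 against Cish in FPKM in the 12 livers (both axes logarithmic), colored by group. A low set of 7 livers, the 3 of Cntrl ZT0 among them, has Cish under 5 FPKM and Foxq1 of 7.25 FPKM or less, and the other 5 have Cish above 17 FPKM and Foxq1 of 14.3 FPKM or more.

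Cish also ranked 3 for Foxa2 (r = 0.82), 5 for Foxa1 (r = 0.84) and 10 for Onecut1 (r = 0.82), and 9365 of 9797 for Prox1 (r = -0.51). The first genes were Slc25a30 (r = 0.90) and Phlda1 (0.85) for Foxa1, Wsb1 (0.85) and Dtx3 (0.83) for Foxa2, and Dhx37 (0.94) and Serpina4-ps1 (0.90) for Onecut1. For the time-separated genes they were Nfic and Zbtb16 (both 0.97) for Foxa3, Coa6 (0.95) and Gga2 (0.94) for Cebpb, and the joint symbol of Gm13363 and Ptp4a1 (0.96) and Mcoln1 (0.95) for Cebpd. Zbtb16 encodes a zinc-finger factor known to respond to glucocorticoids. Cebpa was most like Ier2 (0.85) and Irf2bpl (0.83), and Prox1 was most like G0s2 (0.88), an inhibitor of triglyceride lipase, and Bmp1 (0.83).

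Other members of the FOX family were also compared over time, where 10.4% of all genes were called in Cntrl and 12.4% in Libramed. Of 19 listed FOX genes 10 were tested, and in Cntrl 2 rose at ZT12, Foxo1 (log2 fold change 0.60, SE 0.084, limma adjusted p = 0.0102) and Foxo3 (0.51, SE 0.097, adjusted p = 0.0246), both insulin-restrained forkhead genes. In Libramed 1 rose, Foxo1 (0.62, SE 0.15, adjusted p = 0.0447), while Foxo3 had 0.64 (SE 0.20) at adjusted p = 0.0829. The median of the 10 was 0.02 in Cntrl and -0.03 in Libramed, near that of all genes. Foxo1 was at 4.52 to 5.10 FPKM in Cntrl ZT0 and at 7.27 to 8.14 FPKM in Cntrl ZT12.

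Among partners of the C/EBP proteins, 5 of 6 listed were tested. In Cntrl, Trib1, which encodes a pseudokinase that directs the decay of C/EBP-alpha, rose by 0.73 (SE 0.092, adjusted p = 0.00803), from 11.0 ± 0.21 to 19.0 ± 2.0 FPKM (SD, n = 3). Ddit3, the stress-induced C/EBP relative CHOP, fell by 1.42 (SE 0.20, adjusted p = 0.0101), from 31.7 ± 8.0 to 11.1 ± 1.5 FPKM. In Libramed 0 of the 5 passed by limma at adjusted p under 0.05, and 1, Trib1, had an unadjusted p under 0.05 (0.31, adjusted p = 0.0876). Over the 5 the median was 0.10 in Cntrl and -0.22 in Libramed. The differences between treatments in these time changes were not called for any gene.

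Of 10 further hepatocyte factors 8 were tested. Hhex, a homeobox gene of early liver, was the 1 that rose in Cntrl (1.77, SE 0.28, adjusted p = 0.0138), at 21.6, 20.0 and 36.6 FPKM at ZT0 and 92.3, 115 and 64.4 FPKM at ZT12. In Libramed Hhex was at 72.8, 33.2 and 59.0 FPKM at ZT0 and 40.4, 73.8 and 64.1 FPKM at ZT12, and it was not called. Its livers ranked as those of Foxq1 did in Libramed ZT0 and in Cntrl ZT12, but not in Cntrl ZT0 or Libramed ZT12. In Libramed, Hnf4a rose by 0.37 (SE 0.074, adjusted p = 0.0221) and Nr5a2, the gene of LRH-1, fell by 0.46 (SE 0.086, adjusted p = 0.0176). Over the 8 the median was 0.08 in Cntrl and -0.08 in Libramed.

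Known targets of FOXA and of C/EBP proteins were tested as lists that share 5 genes. Of 12 tested FOXA targets, 2 rose in Cntrl, Slc2a2, the glucose transporter GLUT2 (0.83, SE 0.090, adjusted p = 0.00536), and Cpt1a, of mitochondrial fatty acid entry (0.78, SE 0.13, adjusted p = 0.0166). In Libramed 5 rose, with G6pc (1.84, SE 0.22, adjusted p = 0.0044) and Pck1 (1.79, SE 0.24, adjusted p = 0.00638), both of gluconeogenesis, at the top beside Tat, of tyrosine breakdown (1.41, SE 0.17, adjusted p = 0.0044), and Slc2a2 (0.43, SE 0.081, adjusted p = 0.0184). In Cntrl, G6pc had 1.08 (SE 0.38, adjusted p = 0.124), Pck1 0.74 (SE 0.40, adjusted p = 0.279) and Tat -0.19 (SE 0.32, adjusted p = 0.748). Pck1 was at 346, 1079 and 741 FPKM in Cntrl ZT0 and at 371, 367 and 497 FPKM in Libramed ZT0, so the Cntrl livers were the more spread. For the 12 the median was 0.23 in Cntrl and 0.17 in Libramed.

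Of 11 tested C/EBP metabolic targets, 1 rose in Cntrl, Gys2, the liver glycogen synthase (1.22, SE 0.096, adjusted p = 0.00258). In Libramed 6 rose, among them Gys2 (1.19, SE 0.11, adjusted p = 0.00217) and the 3 shared genes G6pc, Tat and Pck1. Gys2 was at 44.0 ± 4.0 FPKM in Cntrl ZT0 and 104 ± 6.1 FPKM in Cntrl ZT12, and at 48.1 ± 0.71 and 112 ± 16 FPKM in the Libramed groups (SD, n = 3). None of the 11 fell. Their median was 0.13 in Cntrl and 0.63 in Libramed.

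Acute-phase genes, which C/EBP-beta and C/EBP-delta serve together with STAT3, were all tested (19 of 19). In Cntrl 0 rose and 2 fell at ZT12, the fibrinogen genes Fgg (-0.71, SE 0.098, adjusted p = 0.0101) and Fga (-0.71, SE 0.11, adjusted p = 0.0127). In Libramed the same fibrinogen genes fell (both -0.47, adjusted p = 0.0162 for Fga and 0.0244 for Fgg), and Orm3 (2.63, SE 0.22, adjusted p = 0.00135) and Saa1 (3.51, SE 0.88, adjusted p = 0.0447) rose. Orm3 went from a low 0.97 ± 0.56 to 10.9 ± 1.2 FPKM (SD, n = 3). Saa1 went from 306 ± 250 to 4430 ± 4787 FPKM, so its ZT12 livers were far apart. The list median was 0.00 in Cntrl and 0.35 in Libramed. Between treatments at ZT0, 0 of the 19 passed the adjusted threshold by limma, 14 had an unadjusted p under 0.05 and all 19 log2 fold changes were below 0, with a median of -0.74 against -0.02 over all genes. Saa1 (-4.51, SE 0.59) and Saa2 (-5.23, SE 0.79) had the smallest p, each with adjusted p = 0.264. Kupffer cell markers were lower in the same contrast, at 23.7 to 38.6 FPKM summed in Libramed ZT0 against 41.0 to 48.7 FPKM in Cntrl ZT0. All 5 tested had log2 fold changes below 0 (median -0.47), 3 with an unadjusted p under 0.05 and 0 past the adjusted threshold by limma, and their part in the acute-phase values was not tested. At ZT12, 2 of the 19 acute-phase genes were above 0 between treatments (median -0.43). By limma 5 had an unadjusted p under 0.05, among them Orm3, which was higher in Libramed (mean 10.9 against 3.40 FPKM). With both times together 1 of the 19 was above 0 and 15 had an unadjusted p under 0.05. None passed the adjusted threshold in these contrasts. Cebpb was the member lower in Libramed at ZT0 in every liver, while its log2 fold change at ZT12 was 0.25 (SE 0.21).

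Of 12 genes that respond to IL-6 or glucocorticoids, 3 were called higher at ZT12 in Cntrl and 7 in Libramed. None was called lower in either, and 9 of the 12 log2 fold changes were above 0 in each treatment. In Cntrl these were Per1 (1.39, SE 0.25, adjusted p = 0.0195), Fkbp5 (1.86, SE 0.34, adjusted p = 0.0215) and Il6ra (1.09, SE 0.27, adjusted p = 0.0489). In Libramed the 4 with the smallest p were the metallothionein genes Mt2 (4.99, SE 0.30, adjusted p = 0.00047) and Mt1 (3.65, SE 0.36, adjusted p = 0.00235), with Zbtb16 (2.34, SE 0.18, adjusted p = 0.00104) and Per1 (2.39, SE 0.18, adjusted p = 0.00104). In Cntrl the values were 3.58 (SE 1.32, adjusted p = 0.134) for Mt2, 2.92 (SE 1.06, adjusted p = 0.131) for Mt1 and 1.33 (SE 0.44, adjusted p = 0.104) for Zbtb16, with wider errors. At unadjusted p under 0.05 there were 8 of the 12 in both treatments, and for the difference between the time changes 0 of the 12 passed the adjusted threshold by limma and 3 the unadjusted one. The list median was 1.01 in Cntrl and 1.32 in Libramed, against 0.01 over all genes in each.

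Bile acid genes that HNF6 and PROX1 are known to act on were called in both directions. In Cntrl 3 of 7 rose and 2 fell. The 4 with the smallest p were Abcb11, the bile salt export pump (-0.74, SE 0.092, adjusted p = 0.00739), Nr1h4, the gene of FXR (0.49, SE 0.093, adjusted p = 0.0246), Cyp7a1, the rate-limiting enzyme of bile acid synthesis (1.92, SE 0.38, adjusted p = 0.0271), and Slc10a1, the bile acid uptake carrier (0.78, SE 0.16, adjusted p = 0.029). In Libramed 3 rose and 1 fell, and these were the same 4 genes, Cyp7a1 with 2.00 (SE 0.42, adjusted p = 0.0264) and Abcb11 with -0.997 (SE 0.15, adjusted p = 0.00823). The list median was 0.24 in Cntrl and 0.20 in Libramed.

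**Figure D5:**
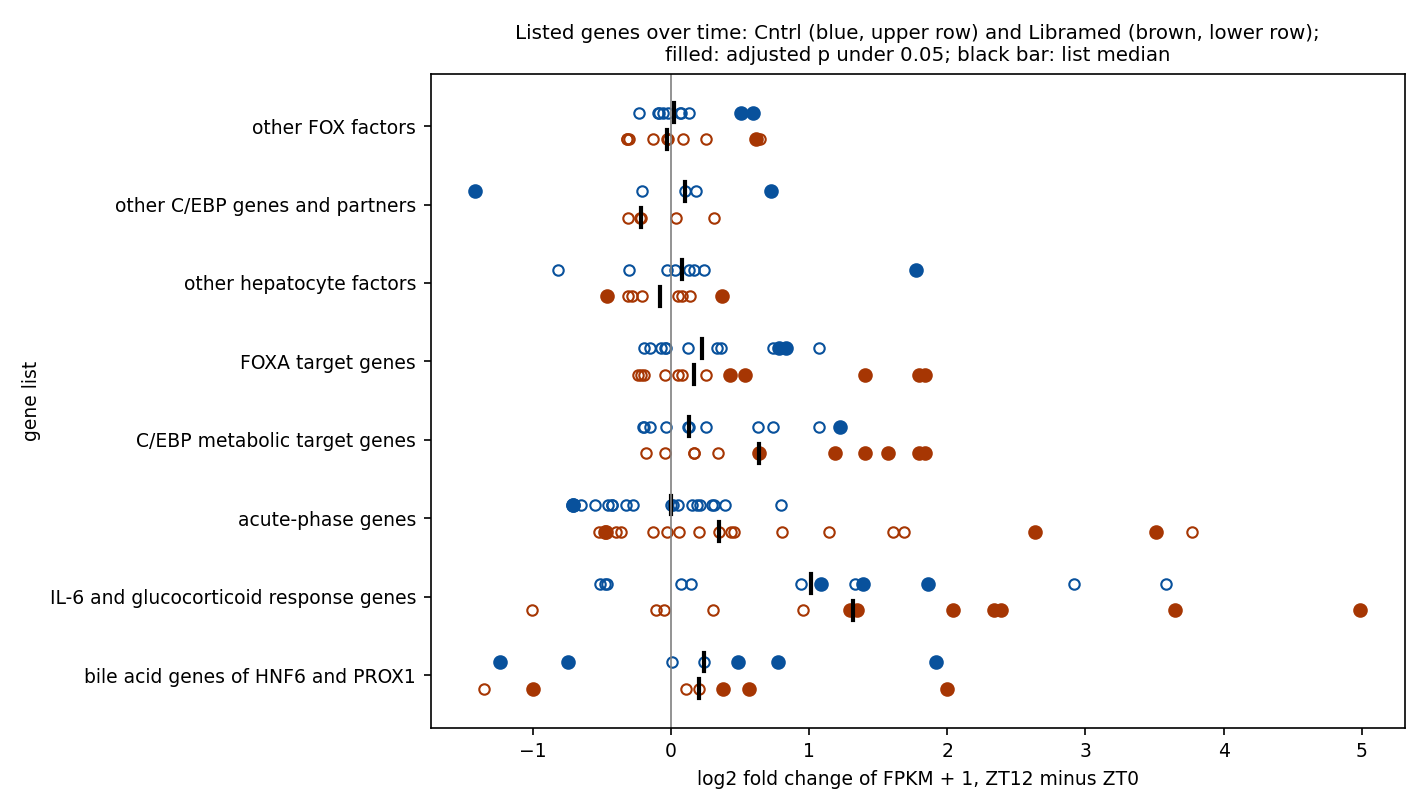
Log2 fold change of FPKM + 1, ZT12 minus ZT0 (horizontal axis), of each tested gene of the 8 lists (rows), in Cntrl (blue, upper) and Libramed (brown, lower), n = 3 per group. Filled circles have limma adjusted p under 0.05 and black bars are list medians. Genes of IL-6 and glucocorticoid response have the highest medians, 1.01 and 1.32. In Libramed 22 of 26 called genes lie above 0, where 686 of all genes were called higher and 526 lower. A gene on more than 1 list is counted once but drawn in each of its rows.

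Over the 8 lists, 80 of 94 genes were tested. In Cntrl 18 were called (13 higher, 5 lower), and without single livers the count lay between 7 (without Cntrl ZT12 replicate 2) and 17. In Libramed 26 were called (22 higher, 4 lower), and the count lay between 14 (without Libramed ZT12 replicate 2) and 26. All genes gave 10.4% called in Cntrl and 12.4% in Libramed. Between treatments 0 of 80 were called by limma at ZT0, at ZT12, over both times or for the difference of time changes. At unadjusted p under 0.05 by limma there were 26, 17, 22 and 14, against 9.23%, 6.74%, 10.1% and 6.63% of all genes. Acute-phase genes were 14 of the 26 at ZT0. At ZT0, 2 were called without Libramed ZT0 replicate 2, both lower. The Libramed contrasts at 1 time and the time contrasts use the same livers, so their counts are not independent of each other.

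Marker RNA of endothelial and stellate cells also differed by time. Of the 5 tested Kupffer cell markers, 0 had an unadjusted p under 0.05 by limma over time in either treatment. Liver endothelial markers (Stab2, Lyve1, Clec4g, Pecam1, Kdr and Oit3) summed to 26.5 to 36.3 FPKM in Cntrl ZT0 and 13.5 to 23.1 FPKM in Cntrl ZT12, and to 34.1 to 42.4 and 21.6 to 22.3 FPKM in the Libramed groups. All 5 tested were lower at ZT12 at unadjusted p under 0.05 in both treatments, and by limma at adjusted p under 0.05 Oit3 fell in Cntrl and Clec4g, Kdr and Oit3 fell in Libramed. Stellate cell markers summed to 31.8 to 57.9 FPKM in Cntrl ZT0 and 28.9 to 45.1 FPKM in Cntrl ZT12, and to 48.2 to 62.7 and 23.6 to 41.6 FPKM in Libramed. The endothelial sums were lower at ZT12 without overlap in both treatments, and the stellate sums overlapped in Cntrl only. Cebpb, Cebpd and Foxa3 were higher at ZT12, and the part of these cells in the values of the factors was not tested.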

How the data were processed

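Liver RNA-seq of 12 mice, 3 in each of 4 groups taken from the labels, was analysed from a single FPKM table that the authors deposited, with a line for each gene. The submitters' processing notes name TopHat, Cuffnorm and mm10 (GRCm38), with no versions, while the methods name another aligner and call the unit RPKM. No read counts were used, so the depth of a sample is known only relative to the others (0.712 to 1.257), and values at a few FPKM are the least precise. The table's 289 repeated lines were reduced to the line with the highest mean, and no sample column was left unused.

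The 9806 genes averaging 1 FPKM or more were compared as log2(FPKM + 1) with limma 3.58.1 in R 4.3.3 (trend, two-sided), with Benjamini-Hochberg adjustment over all of them. The times were compared inside each treatment and the treatments inside each time, in fits of 6 samples, and both times together and the difference of time changes in fits of 12. The fit was tested on simulated data. The 9 genes and the 8 gene lists were chosen with earlier results of these data known. All 9 are named, with up to 4 called genes per list and comparison by smallest p, or up to 2 where none was called, and the 2 genes most alike to each factor by Pearson's r. Hhex, Pck1 and Tat in groups where they were not called, Foxo3, Trib1, G6pc, Mt1, Mt2 and Zbtb16 in the other treatment, Cela1 and the ranks of Cish beyond Foxq1 were added after their values were seen. Of each list's smallest p between treatments, the acute-phase genes are given as values. Alternatives were another pseudocount and minimum, other scalings, no trend, a joint fit, a replicate block and leaving out each liver. Promoters and motif shares came from a RefSeq table of GRCm38.p6, and gene positions from GENCODE vM21.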

Additional observations from a re-analysis of the deposited data

Results flagged for a closer look

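Tat, the gene of tyrosine aminotransferase and a target of both FOXA and C/EBP proteins, differed between treatments in opposite directions at the 2 times. It was at 500, 615 and 834 FPKM in Cntrl ZT0 and at 373, 411 and 441 FPKM in Libramed ZT0, so every Libramed liver was lower (log2 fold change -0.64, SE 0.19). At ZT12 it was at 365, 569 and 829 FPKM in Cntrl and at 1013, 891 and 1397 FPKM in Libramed, so every Libramed liver was higher (log2 fold change 0.96). The difference between the time changes was 1.60 (SE 0.39) on the log2 scale, with limma adjusted p = 0.519. Of all 9806 genes, 0.591% separated the treatments in opposite directions at the 2 times without overlap. None of the 9 factors did so.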

How the results depend on the processing

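With no minimum on FPKM, 9 listed genes were called over time in Cntrl in place of 18 and 16 in Libramed in place of 26, where more genes were tested, and 0 of the 9 factors in place of 1 in Cntrl. With a minimum mean of 5 FPKM 0 factors were called in Cntrl, since Cebpd was not tested, and with the fit over all 12 samples 3 were. Leaving out single livers gave 7 to 17 listed genes in Cntrl, 14 to 26 in Libramed and 0 to 2 between treatments at ZT0, and 0 to 3 factors over time in Cntrl; fewer samples entered these fits. The other counts of calls stayed within 1.5 times. Of the alternative log2 fold changes of the factors, 837 moved by less than the gene's own SD within groups and 3 by more. That SD is wide for genes such as Onecut1 (1.13), so the count says little about how steady their values were. The time change of Onecut1 in Libramed, 0.33 and -0.38 without Libramed ZT12 replicate 2, is among the 837. The replicate numbers were tried as a block: deviations of same-numbered livers correlated between -0.28 and 0.34, over 0.1 in 4 of 18 pairs, so the numbers do not pair the samples. With the replicate block 6 listed genes were called over time in Cntrl, 24 in Libramed and 2 between treatments at ZT0, and 0 and 3 factors over time in Cntrl and Libramed; the cause was not tested. Signs that turned without 1 liver were of uncalled values, such as Onecut1 at ZT0 between treatments, 0.11 and -0.19 without Libramed ZT0 replicate 3. With 3 livers a group and no counts, differences of the size of the Onecut1 and Foxq1 spread were not resolved.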
